A study of Canis lupus familiaris with 16 samples.

Results

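BMPR1B (ENSCAFG00000010107) and BMPER (ENSCAFG00000003167), a receptor and an extracellular regulator of bone morphogenetic protein (BMP) signaling, were followed through 13 canine meningiomas and the normal meninges of 3 dogs. They are 2 of the 24580 Ensembl genes in the deposited table and were selected by name because the study lists both as overexpressed in meningioma. That list rests on the meningioma-to-control difference in these same libraries, so this difference is given for both genes as a description only. The meningiomas, 6 of grade I (transitional or meningothelial) and 7 of grade II (atypical), were surgical biopsies from adult to old pet dogs of several breeds. According to the study's methods they were formalin-fixed and paraffin-embedded apart from a pair of flash-frozen grade II tumors. The controls were leptomeninges of healthy research beagles, flash-frozen after euthanasia, and their age is not given in the sources used here. No treatment or engineered allele is recorded for any dog. RNA was depleted of ribosomal RNA and sequenced from directional libraries.

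BMPs are secreted ligands of the TGF-β superfamily that bind pairs of type I and type II serine/threonine kinase receptors on the cell surface. The type I receptor then phosphorylates SMAD proteins, which enter the nucleus with SMAD4 and change transcription. BMPR1B, also called ALK6, is one of the type I receptors and is best known from cartilage and limb development. BMPER is the vertebrate relative of fly crossveinless-2, a secreted protein with chordin-like cysteine-rich repeats that binds BMPs and can restrain or promote their signal. It was named for its expression in endothelial cells and their precursors. In the meninges, BMPs are among the signals that pass between the meningeal layers and the developing brain and skull.

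Libraries are numbered within their group in the deposited table (meningioma 0 to 12, control 0 to 2), and the table does not name the dog behind each number. Libraries were not matched to single dogs here, so grade, histologic subtype and preservation were not compared. The part of preservation in the differences between tumor and control was not tested. Fragments assigned to genes ran from 2138741 to 7358925 per meningioma library and were 7054614, 2269204 and 4467660 in controls 0, 1 and 2. Across the tested genes, the median Spearman correlation of a meningioma library with the other 12 was between 0.845 and 0.894, except for library 6 with 0.817. Both BMPR1B and BMPER passed the filter of at least 10 fragments in at least 3 libraries, as did 14345 genes in all. Levels are given as FPKM (fragments per kilobase of transcript, scaled to the size of the library), with the number of fragments behind them where it is small.

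BMPR1B was above all controls in 10 tumors and below all of them, at a trace, in 3. The controls had 1.22, 2.09 and 0.917 FPKM. The meningiomas ran from 0.161 to 42.6 FPKM with a median of 7.86, a 265-fold range. Libraries 0, 8 and 4 were highest, with 42.6, 31.3 and 25.0 FPKM, followed by library 1 with 17.8, library 5 with 16.9 and library 11 with 9.34 FPKM. Libraries 2, 3, 6 and 7 had 7.86, 7.59, 4.55 and 2.47 FPKM. All of these 10 lay above the highest control, library 7 by the least, since its interval of 1.80 to 3.30 FPKM held the value of control 1. The remaining 3, libraries 10, 9 and 12, had 0.329, 0.250 and 0.161 FPKM and lay below the lowest control, so no tumor had a level within the control range. A level below all controls in at least 3 tumors was common, at 63.0% of the tested genes.

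**Figure D1:**
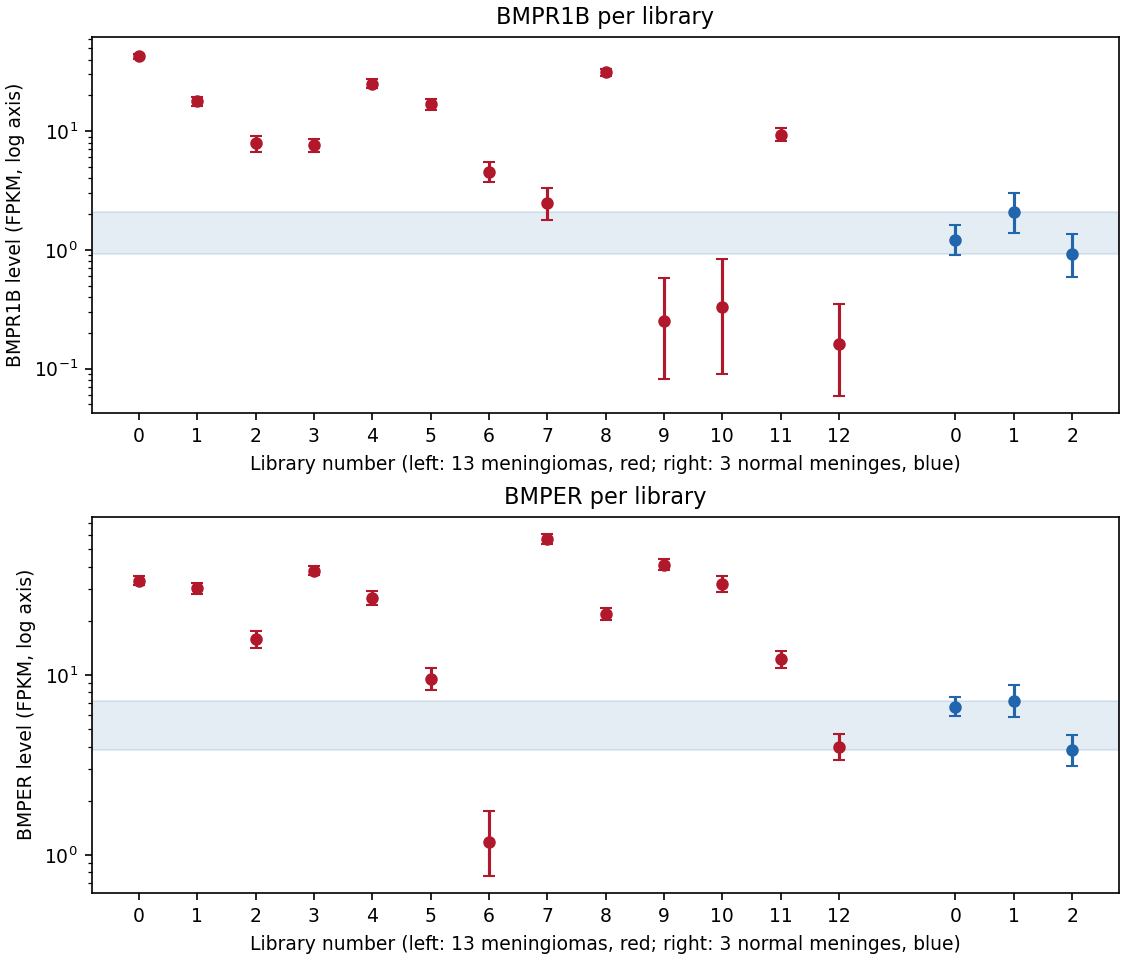
Level of BMPR1B (top) and BMPER (bottom) in each library, as FPKM on a log axis, with 95% exact Poisson intervals of the fragment count (counting error only) and the control range shaded. BMPR1B is above the shaded range in 10 meningiomas and below it in libraries 9, 10 and 12, whereas BMPER is above it in 11, below it in library 6 and inside it in library 12.

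The low values of BMPR1B rested on few fragments. Libraries 9, 10 and 12 held 5, 4 and 6 fragments of BMPR1B, with 95% exact Poisson intervals of 1.62 to 11.7, 1.09 to 10.2 and 2.2 to 13.1. At the mean level of the controls, libraries of their size would have held 28.1, 17.1 and 52.5 fragments. None of the 3 counts was at or under the floor of 3 fragments, so BMPR1B was detected at a trace in each. In FPKM, the upper bounds were 0.584, 0.843 and 0.350, against lower bounds of 0.896, 1.40 and 0.588 for controls 0, 1 and 2. Library 10, the tumor with the fewest fragments assigned to genes, thus overlapped control 2 within counting error. Library 9 lay just under the lower bound of control 2. Library 12, one of the 2 tumors with the most such fragments, was clear of all controls. The intervals cover counting error only.

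BMPER was above the controls in most tumors and at a trace in none. The controls had 6.67, 7.20 and 3.83 FPKM, and the meningiomas ran from 1.18 to 57.2 FPKM with a median of 26.8, a 48.3-fold range. Libraries 7, 9 and 3 were highest with 57.2, 40.9 and 37.9 FPKM. Libraries 0, 10, 1 and 4 had 33.4, 32.0, 30.2 and 26.8 FPKM. These 7 tumors held the median and all levels above it. Libraries 8, 2, 11 and 5 had 21.7, 15.8, 12.2 and 9.51 FPKM, which was still above the highest control. Library 12 had 4.0 FPKM (146 fragments), inside the control range. Library 6 had 1.18 FPKM, from 25 fragments with an interval of 16.2 to 36.9, where 124.5 would have been seen at the control mean. Its upper bound of 1.75 FPKM was under the lower bound of 3.11 FPKM of control 2, the lowest control.

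Both genes were expressed less evenly among tumors than most genes. The mean of BMPR1B was 12.8 ± 13.3 FPKM over the tumors (SD, n = 13), where the controls averaged 1.41 ± 0.607 FPKM (SD, n = 3). For BMPER the tumor mean was 24.8 ± 16.1 FPKM (SD, n = 13), where the controls averaged 5.90 ± 1.82 FPKM (SD, n = 3). The coefficient of variation among tumors was 104.3% for BMPR1B and 64.9% for BMPER, against 43.2% and 30.8% among the controls. On the log2(FPKM + 1) scale, the SD between meningiomas was 1.81 for BMPR1B and 1.35 for BMPER, where the median tested gene had 0.50. A larger SD was found in 1.19% of the tested genes for BMPR1B and in 4.0% for BMPER. Among the 41 distinct genes that the study lists as overexpressed, 5 had a larger SD than BMPR1B and 17 a larger one than BMPER. In a count model of the meningiomas alone, the biological coefficient of variation (the spread left after counting error) was 1.17 for BMPR1B and 0.763 for BMPER, and 0.460 and 0.476 for typical genes of their abundance. The spread of both genes between tumors was thus larger than that of a typical gene of their level, by this estimate.

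In edgeR's quasi-likelihood model of all genes, the log2 fold change of meningioma over control was 3.22 for BMPR1B (standard error 1.40) and 2.08 for BMPER (standard error 0.80). Here and below, standard errors for edgeR were derived from its F statistic, as the absolute log2 fold change over the square root of F. A fold change at least that of BMPR1B was seen in 0.342% of the tested genes, and one at least that of BMPER in 1.59%. Neither gene was called: 0 of 2 had an adjusted p under 0.05, where 4.86% of the tested genes were called in either direction and 1.31% as higher in meningioma. DESeq2 called 2 of 2, against 4.63% of the genes as higher, and without meningioma library 6 edgeR called 1 of 2, which was BMPER. Since the contrast chose both genes, nothing is read from these counts. FPKM was above all 3 controls in at least 10 of 13 tumors in 12.4% of the tested genes and in at least 11 in 8.35%. The pattern of BMPR1B, above all controls in at least 10 tumors and below all of them in 3, was shared by 71 genes, or 0.495%. On the log2(FPKM + 1) scale, in which each tumor weighs equally, the difference was 1.72 for BMPR1B (standard error 0.97) and 1.53 for BMPER (standard error 0.73). In these bulk samples, more cells expressing a gene and more RNA per cell cannot be told apart.

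Endothelial and mural markers were lower in the tumors than in the controls. The summed FPKM of 11 endothelial markers (PECAM1, TEK, TIE1, FLT1, EMCN, CD93, ESAM, PLVAP, NOS3, MMRN2 and MYCT1) was 44.3 to 191.5 in the tumors and 487.7 to 795.9 in the controls, with none of the 11 at 0 in any library. All 11 were called lower in meningioma by edgeR, as were 3.55% of the tested genes, with a median log2 fold change of -2.73, against 0.06 over all tested genes. The 5 mural markers (MYH11, NOTCH3, MCAM, FHL5 and SYNPO2, genes of smooth muscle cells and pericytes) were also all called lower, from 116.0 to 272.5 summed FPKM in the controls to 12.7 to 48.2 in the tumors. PDPN, a marker of arachnoid cells, was called higher, with a log2 fold change of 2.45. The study picked all these markers from the same libraries for their difference, so its direction was fixed by that choice. Their part in the levels of BMPR1B and BMPER between tumor and control was not tested. Markers of neural, glial and white blood cells were not analysed here, because their identifiers were not paired with symbols.

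The tumors low in one gene were mostly not those low in the other. Both genes were above all controls in 9 of the 13 meningiomas. BMPER alone was above them in libraries 9 and 10, where BMPR1B was at a trace and BMPER ranked 2nd and 5th of 13. BMPR1B alone was above them in library 6, which had the least BMPER of all 16 libraries. Neither was above the controls in library 12, which had the least BMPR1B and ranked 12th of 13 in BMPER. Library 7 had the most BMPER and, among the 10 tumors with BMPR1B above the controls, the least BMPR1B.

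**Figure D2:**
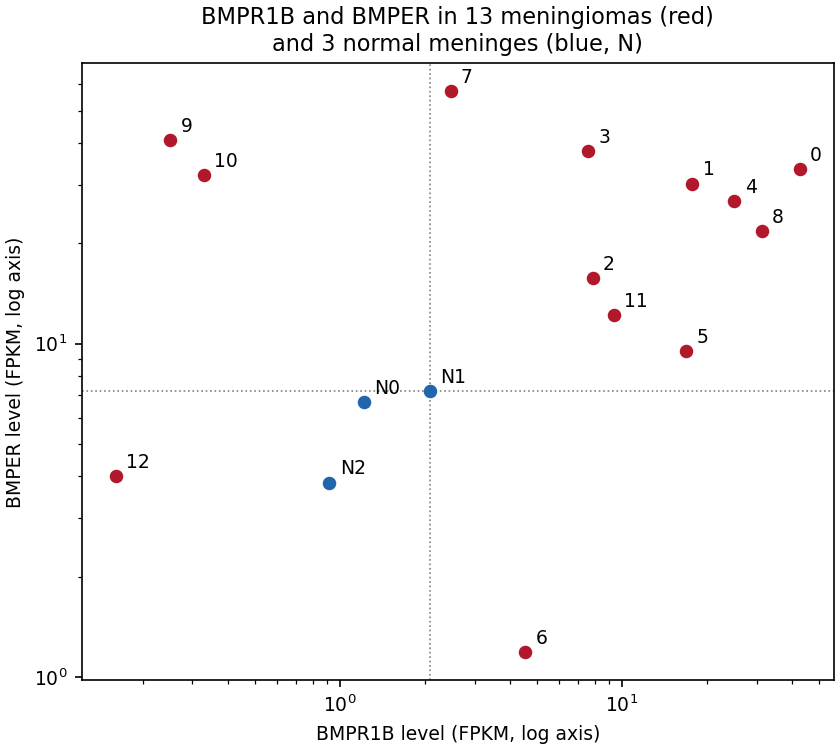
BMPR1B (x axis) against BMPER (y axis), both as FPKM on log axes, in 13 meningiomas (red, by library number) and 3 controls (blue, N), with dotted lines at the highest control. Of the meningiomas, 9 lie above both lines, libraries 9 and 10 above that of BMPER only, library 6 above that of BMPR1B only, and library 12 above neither.

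No relation between the genes was detected over the 13 meningiomas. On the log2(FPKM + 1) scale, Pearson's r was 0.113 (permutation p = 0.724, adjusted p = 0.951) and Spearman's rho was -0.044 (permutation p = 0.891, adjusted p = 1.00). These are two-sided tests of 100000 resamples, adjusted over the 15 relations examined. Without the 2 libraries farthest from the median of BMPR1B, r was 0.0239 and rho was -0.109. Within the 10 tumors other than those with a trace of BMPR1B, a set selected by BMPR1B itself, r was 0.198 and rho was 0.0182 (permutation p = 0.597 and 0.973). Of the tested genes, 56.7% had a higher rho with BMPR1B than BMPER did. By RefSeq's gene order for UU_Cfam_GSD_1.0, a dog assembly other than that of the files, BMPR1B is on chromosome 32 next to PDLIM5 and BMPER is on chromosome 14 next to NPSR1, so the genes are not neighbors. Neither overlaps the protein-coding gene on either side.

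The ratio of the regulator to the receptor had a narrower range in the 3 controls than in the 13 tumors. A range tends to widen with the number of libraries, which differs between the groups. BMPER exceeded BMPR1B by 5.49-fold, 3.45-fold and 4.17-fold in FPKM in controls 0, 1 and 2. In the meningiomas this ratio ran from 0.261 in library 6 to 163.4 in library 9, with a median of 1.70. It was below that of every control in 8 tumors, above that of every control in 4 (libraries 7, 9, 10 and 12) and within the control range in 1 (library 3). BMPR1B was higher than BMPER in 4 tumors, libraries 0, 5, 6 and 8, and in no control. The ratio compares FPKM, which is per length, and rests on 4 to 6 fragments of BMPR1B in libraries 9, 10 and 12.

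The tumors with a trace of BMPR1B were not all short of the other genes that the study found overexpressed. Of the 39 others, 36 were above all controls in library 9 and 38 in library 10, the latter being the most of any tumor, and 0 were below all controls in either. In library 12, 29 were above and 4 below all controls. Library 6, with the least BMPER, had the fewest above all controls (23) and the most below (7), and it was also the library least like the other tumors. In the other 9 libraries between 30 and 37 of the 39 were above all controls. None of the 39 was at the floor of 3 fragments in any tumor. The study chose the 39 for being higher in these same tumors, so high counts are built in. The share of all tested genes above or below all controls in each library was not counted.

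**Figure D3:**
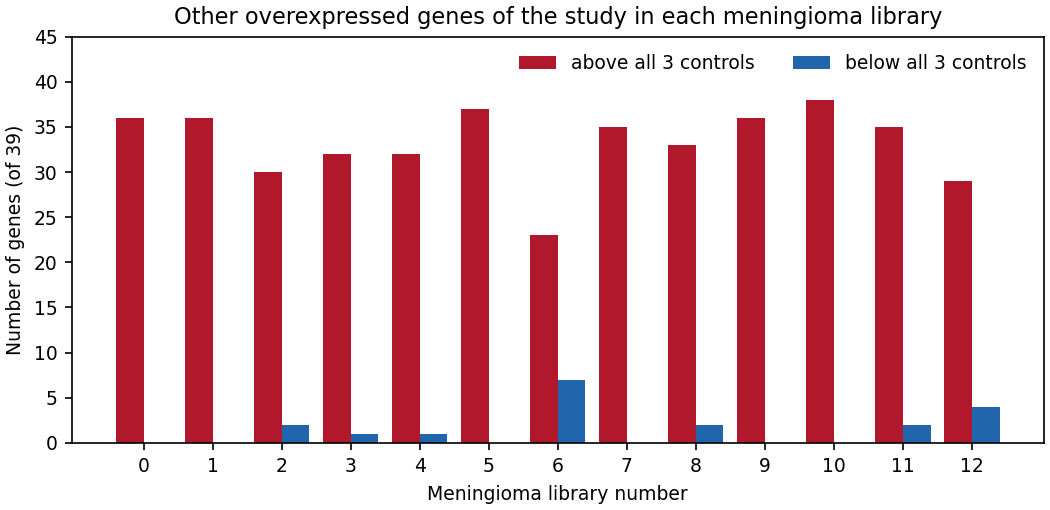
Number of the 39 other overexpressed genes with FPKM above all 3 controls (red bars) and below all 3 (blue bars) in each of the 13 meningioma libraries. Libraries 9 and 10, in which BMPR1B was at a trace, have 36 and 38 above, and library 6, with the least BMPER, has 23 above and 7 below.

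Of a list of 62 BMP pathway genes (ligands, receptors, SMADs, extracellular modulators and targets), 5 had an identifier here. These were BMPR1B, BMPER and the modulators TLL1, COMP and FMOD, all in the study's lists of changed genes and so chosen on these libraries. edgeR called 0 of the 5 as higher and 1, FMOD, as lower, where 3.55% of the tested genes were called lower. DESeq2 called 3 as higher (BMPR1B, BMPER and COMP), where it called 4.63% of the genes higher, and FMOD as lower, where it called 4.91% lower. In edgeR all 5 had an unadjusted p under 0.05, as did 20.2% of the tested genes. Since the list's members were chosen on these libraries, nothing is read from these shares. The ligands, the type II receptors, the SMADs, noggin, chordin and the ID target genes were not analysed here.

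COMP, a cartilage matrix protein that binds BMPs, was above all controls in 10 tumors, including the 3 with a trace of BMPR1B. It had 54.8, 10.4 and 7.46 FPKM in the controls, and 18.5 to 383.5 FPKM with a median of 73.4 in the meningiomas. The remaining 3 tumors were within the control range, so the groups overlapped. A level above all controls in at least 10 tumors was found in 12.4% of the tested genes. Its log2 fold change was 2.31 (standard error 0.93), and DESeq2 but not edgeR called it. In libraries 9, 10 and 12, with a trace of BMPR1B, COMP was at 93.5, 66.0 and 61.5 FPKM. In library 6, with the least BMPER, it had its own lowest level of 18.5 FPKM.

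TLL1, a tolloid-family protease that cleaves the BMP antagonist chordin, lay below all controls in every tumor. It had 6.89, 7.79 and 12.3 FPKM in the controls, and 0.0812 to 5.96 FPKM with a median of 0.713 in the meningiomas. All 13 tumors lay under all 3 controls without overlap, at a log2 fold change of -2.39 (standard error 0.77) that neither edgeR nor DESeq2 called. FMOD (fibromodulin), a small proteoglycan of the matrix that binds TGF-β, had 328.4, 174.1 and 116.2 FPKM in the controls and 5.39 to 88.5 FPKM with a median of 45.8 in the meningiomas. Its groups did not overlap either, and its log2 fold change was -2.21 (standard error 0.46). TLL1 and FMOD come from the study's list of underexpressed genes, chosen on these libraries. The share of all tested genes with such a separation was not counted, so nothing is read from it. The lowest FMOD was again in library 6.

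**Figure D4:**
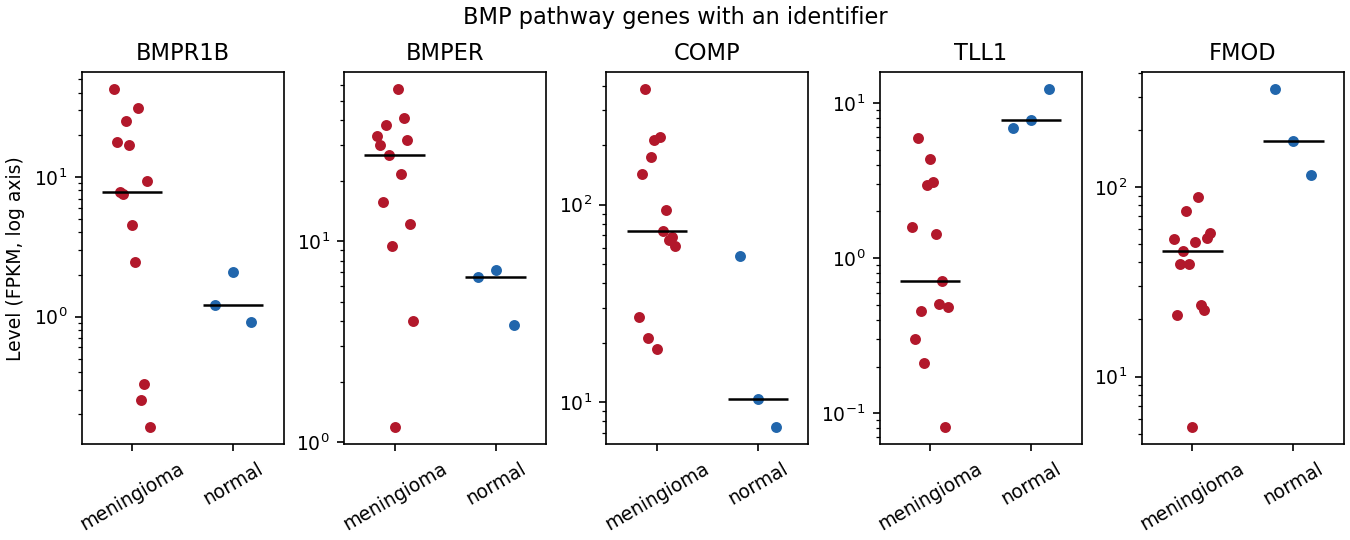
Level of the 5 BMP pathway genes with an identifier, as FPKM on log axes that differ between panels, in 13 meningiomas (red) and 3 controls (blue), with a black line at each median. BMPR1B and BMPER have tumors on both sides of the controls, COMP overlaps the highest control, and TLL1 and FMOD are below all controls in all 13 tumors.

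The levels of both genes over the 13 tumors were also set against 7 other measures. These were the mean log2(FPKM + 1) of the endothelial, mural and immediate-early lists, PDPN, TLL1, the ligand gene WNT5A, and the log2 of total fragments. None of these 14 relations had an adjusted p under 0.05. BMPR1B was closest to the immediate-early list (FOS, FOSB, EGR1, NR4A1 and ZFP36, genes induced within minutes of a stimulus), with rho = 0.643 (permutation p = 0.0211, adjusted p = 0.316) and r = 0.586 (permutation p = 0.0388, adjusted p = 0.582). Without the 2 libraries farthest from the median of that list, r was 0.536 and rho was 0.582. Within the 10 tumors with BMPR1B above the controls, a set selected by BMPR1B itself, rho was 0.358 (permutation p = 0.311). The summed FPKM of the list was 32.8, 54.7 and 76.2 in libraries 12, 9 and 10, and ran from 32.8 to 1872 over all tumors and from 33.2 to 55.7 over the controls. Libraries 3, 7 and 8, with BMPR1B above all controls, had sums of 54.2, 94.1 and 127.6, and the remaining tumors had at least 209.2. Between tumor and control, edgeR called 0 of the list's 5 genes, against 1.31% of the tested genes as higher, and their median log2 fold change was 3.17. Of the 5, 4 had an unadjusted p under 0.05 in edgeR, against 20.2% of the tested genes, and DESeq2 called 4 as higher, against 4.63%. These genes, too, come from the study's lists.

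Over all 13 tumors, no relation of BMPR1B with total fragments assigned to genes was detected. Here rho was 0.473 (permutation p = 0.106, adjusted p = 0.798) and r was 0.414 (permutation p = 0.161, adjusted p = 0.803). This r fell to 0.0039 without the 2 libraries farthest from the median of total fragments. Without library 12, which had nearly the most fragments and the least BMPR1B, rho was 0.790 (permutation p = 0.00327, adjusted p = 0.0490). The part of total fragments in the BMPR1B levels was not tested further. BMPR1B had rho = 0.00 with PDPN (permutation p = 1.00) and rho = -0.308 with the endothelial list (permutation p = 0.307). Within the 10 tumors with BMPR1B above the controls, rho with the endothelial list was -0.685 (permutation p = 0.0345, adjusted p = 0.370). There, rho was -0.539 with the mural list (permutation test, adjusted p = 0.57) and 0.648 with total fragments (permutation test, adjusted p = 0.370). These 10 tumors were selected by the level of BMPR1B itself, so nothing is read from these values. For BMPER, the rho of largest size was -0.341, with PDPN (permutation p = 0.253, adjusted p = 0.922), and the r of largest size was -0.299, with TLL1 (permutation p = 0.326, adjusted p = 0.951). Its rho with the endothelial list was 0.0989 (permutation p = 0.752) and with total fragments -0.148 (permutation p = 0.630).

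**Figure D5:**
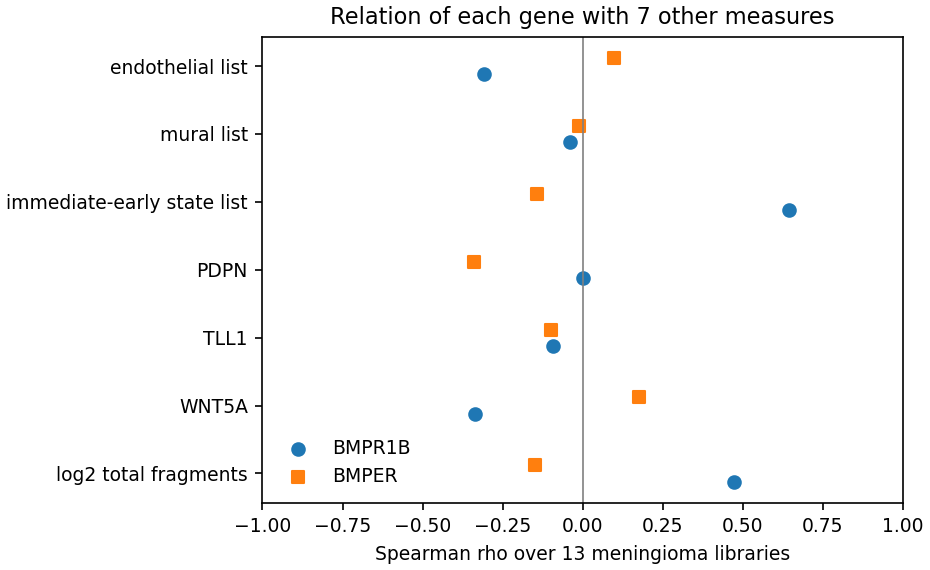
Spearman's rho of BMPR1B (circles) and BMPER (squares) with 7 other measures over the 13 meningioma libraries. The points lie between -0.341 and 0.643, the largest being BMPR1B with the immediate-early list, and none has an adjusted p under 0.05.

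Only 123 other genes had a symbol, all from the study's lists of changed genes and so chosen on these libraries. Among them, the genes most like each member over the 13 meningiomas were sought by Spearman's rho of log2(FPKM + 1). They are given as extremes without a p. For BMPR1B these were GAS6 (a ligand of the TAM receptor kinases) with rho = 0.753 and r = 0.718, NOL4 (a nucleolar protein) with rho = 0.720, FOS with rho = 0.714 and r = 0.754, PTGIR (the prostacyclin receptor) with rho = 0.659, and a segment of the noncoding RNA NEAT1 with rho = 0.654. The most opposite were ACTC (cardiac α-actin), with rho = -0.775 and r = -0.869, and an identifier that the study pairs with both ERMP1 and DMXL2, with rho = -0.747. Over all 14344 other tested genes, 157 had a higher rho with BMPR1B than GAS6 did. The highest was 0.951, in a gene given only by its identifier, ENSCAFG00000018868. A rho of 0.8 was reached by 87 genes, or 0.607%, and 70 were at or under -0.8.

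With BMPER, 16 of the tested genes, or 0.112%, reached a rho of 0.8, and 10 were at or under -0.8. How many genes would do so without any relation was not tested, so nothing is read from these counts. The highest over all tested genes was 0.896, in ENSCAFG00000019599. Among genes with a symbol, SHE (an adaptor protein with an SH2 domain) had rho = 0.753 and r = 0.578, CILP2 (a cartilage intermediate layer protein) 0.670, FAM180A 0.599, MYBL1 (a MYB-family transcription factor) 0.522 and LAMC3 (a laminin chain) 0.511. The most opposite were RCN3 (a calcium-binding protein of the endoplasmic reticulum) with rho = -0.516 and AMOT (angiomotin) with rho = -0.473. None of the genes named for one member was named for the other.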

How the data were processed

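The authors trimmed the reads with cutadapt 1.8, removed ribosomal and small RNA reads with bowtie2, mapped the rest to Ensembl CanFam3 with TopHat2 2.0.13 using annotated junctions and strand, and ran Cuffdiff 2.2.1. The deposited table holds, for each gene and library, the authors' estimated count of fragments, a signal made by the authors, which is these fragments over 1 size factor per library, and the authors' FPKM. Conditions C and N, with 13 and 3 libraries, were taken as meningioma and normal meninges. Symbols came from the study's gene lists.

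Fragments were rounded (0.344% were not whole) and fitted with edgeR 4.0.16 in R 4.3.3 (TMM, quasi-likelihood, Benjamini-Hochberg) keeping genes that reached 10 fragments in 3 or more libraries. Alternatives were DESeq2 1.42.0, other size factors, other filters, log2(FPKM + 1) or log2(FPKM + 0.1) values in limma 3.58.1, and leaving out each library. Correlations used scipy 1.17.1. The study's Cuffdiff test was not rerun. Scripts were tested on simulated data. Members, lists and tests were chosen with earlier results of these data known. The genes named were both members, listed BMP genes and markers, and the 5 most and 2 least similar genes with a symbol. A library was low below the lowest control and at the floor with at most 3 fragments. Since the labels name single tumors and dogs, libraries served as replicates.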

Additional observations from a re-analysis of the deposited data

How the results depend on the processing

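The number of genes called was 697 with edgeR and 1364 with DESeq2, and 169 to 931 when each library was left out in turn. It was 245, 350 and 169 without control 0, 1 and 2, and the share of called genes that were higher in meningioma was 27.0% with edgeR, 48.5% with DESeq2, and 15.1%, 12.3% and 7.1% without these controls. The log2 fold changes of BMPR1B and BMPER stayed positive in all alternatives, between 2.90 and 3.59 and between 1.84 and 2.25 with 1 library left out. The 15 correlations stayed on the same side of 0.05 except for 2 of BMPR1B. With the immediate-early list, rho was 0.818 (permutation test, adjusted p = 0.0247) without meningioma library 8, and 0.545 to 0.818 over the libraries left out. With total fragments, rho was 0.790 (permutation test, adjusted p = 0.0490) without library 12, and 0.329 to 0.790. The cause was not tested. The correlations within 10 tumors were chosen after seeing the data, and these tumors were selected by the level of BMPR1B itself. No paired analysis was possible because the groups are different dogs and the table's library numbers are not those of the labels. The values of BMPR1B in libraries 9, 10 and 12 are limited by counting error, at 4 to 6 fragments each.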
